A study of Mus musculus with 6 samples.

Results

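The ADAMTS proteinases described here were the 10 genes Adamts1, Adamts2, Adamts3, Adamts4, Adamts5, Adamts7, Adamts9, Adamts10, Adamts12 and Adamts15, each found by its exact gene name among the 34709 genes of a bulk RNA sequencing table from mouse articular cartilage. All 10 were present and had reads in every library. Of these, 5 reached a mean of 0.5 FPKM (fragments per kilobase of transcript, normalised for library depth), the limit used for testing, as did 15373 of all genes. The other 5, Adamts3, Adamts4, Adamts7, Adamts12 and Adamts15, lay below it and are given mainly as levels.

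The study compared cartilage of knockout (KO) and wildtype mice, with 3 libraries labelled KO and 3 labelled wildtype, to ask how loss of the targeted gene alters aged cartilage. No treatment was given to either group. The libraries are described as cartilage of animals 18 months old, and male littermates are named for the ageing experiments, although the sample labels carry neither age nor sex and the column names of the table hold an 18 with no unit. The KO mice came from a purchased line for which no tissue-specific driver is named, and the sources used here do not state whether a library came from 1 animal or from several, so p-values measure the spread between these samples, which may be technical.

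ADAMTS proteinases are secreted zinc metalloproteinases with thrombospondin repeats that anchor them in the extracellular matrix. One branch cleaves the large chondroitin sulfate proteoglycans, or hyalectans, of which aggrecan gives cartilage its resistance to compression, and loss of aggrecan through these enzymes is a well-known early step of osteoarthritis. Others trim the amino-terminal propeptides from fibrillar procollagens, bind cartilage oligomeric matrix protein (COMP), or associate with fibrillin microfibrils.

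The catalytic site of all 10 members could be read from the GENCODE M21 transcripts (GRCm38), and it is shown because the members' zinc proteinase activity rests on it. Related metalloproteinases outside the family carry the same kind of site. Each stretch below has 33 bases of spliced coding sequence, 5′ to 3′, and encodes the zinc-binding motif. Capitals mark the codons of the zinc-binding histidines, the catalytic glutamate next to the leading histidine, and the 8th residue. In all 10 transcripts the stretch was split over 2 exons, so its genomic span includes an intron.

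In 4 members the 8th residue was asparagine, and all of them are hyalectan-cleaving enzymes:
Adamts1: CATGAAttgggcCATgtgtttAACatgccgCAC
Adamts4: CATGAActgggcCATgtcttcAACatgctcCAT
Adamts9: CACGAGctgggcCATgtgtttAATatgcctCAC
Adamts15: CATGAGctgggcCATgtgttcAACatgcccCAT

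In the other 6 members the 8th residue was glycine. Adamts5 was the hyalectan-cleaving enzyme in this group:
Adamts5: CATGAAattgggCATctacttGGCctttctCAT
Adamts2: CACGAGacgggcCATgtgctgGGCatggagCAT
Adamts3: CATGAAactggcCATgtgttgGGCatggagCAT
Adamts7: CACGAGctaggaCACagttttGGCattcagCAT
Adamts12: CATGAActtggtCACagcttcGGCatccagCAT
Adamts10: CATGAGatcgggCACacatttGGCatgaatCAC

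Adamts4 and Adamts15 shared 30 of the 33 bases, and the procollagen-trimming pair Adamts2 and Adamts3 shared 29. The COMP-binding pair Adamts7 and Adamts12 shared 26. The least alike were Adamts9 and Adamts12, with 17 identical bases. The Adamts5 site spanned chr16:85878015-85887826 on the minus strand, across exons 2 and 3, and the Adamts9 site spanned chr6:92905285-92908493 on the minus strand, across exons 8 and 9.

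Total counts per library ranged from 52268311 to 63331135, and the 10 ADAMTS genes together took between 0.0177% and 0.0280% of them. KO replicates 2 and 3 stood apart from the rest, and their expression profiles correlated at 0.996 across genes. Their squared count differences were 5.78 times what counting noise gives (median over genes with 200 to 50000 counts). For the other 14 pairs of libraries this ratio was 23.8 to 85.3. KO replicates 2 and 3 were therefore averaged and counted as 1 sample, which left 2 KO and 3 wildtype samples. The fit of all 6 libraries as labelled is given where it matters. The cartilage label was checked against cell type markers. Chondrocyte transcripts were present, with Prg4, which encodes the joint lubricant lubricin, at 402 to 1034 FPKM. Acan, the aggrecan core protein, was at 13.2 to 22.8 FPKM. Col2a1, at 12.4 to 21.3 FPKM, was below Col1a1, at 104.6 to 495 FPKM. However, Matn1 and Matn3, 2 cartilage matrilins, were at or near 0. The summed level of 9 erythroid genes (24950 to 108568 FPKM) and that of 10 neutrophil genes (25869 to 60664 FPKM) exceeded that of 15 chondrocyte genes (663 to 1475 FPKM) in every library, so blood and marrow RNA was abundant. The sum of 9 osteoblast and osteocyte genes (623 to 1776 FPKM) exceeded the chondrocyte sum in wildtype replicates 1 and 2 but not in the other libraries. In such bulk samples, fewer cells of a type and less RNA per cell cannot be told apart.

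Of the 5 tested ADAMTS genes, 0 passed an adjusted p of 0.05 in the quasi-likelihood test of edgeR, with p adjusted by the Benjamini-Hochberg method over all tested genes, as did 0 (0%) of the 15373 genes tested. At an unadjusted p under 0.05, 2106 genes differed, and 2 of the 5 ADAMTS genes, Adamts1 and Adamts9, were among the 933 (6.07%) that were lower in KO. The fit of 6 libraries as labelled called 570 genes (3.71%) and DESeq2 called 879, with 0 ADAMTS genes in either. All 5 tested members had a log2 difference (KO minus wildtype) below 0, with a median of -0.47, while over all tested genes 52.5% lay below 0 and the median was -0.02. Without wildtype replicate 1 the 5 were still below 0, with a median of -0.24. Of these, Adamts10 lay near 0, at -0.012 in the fit of 5 samples and -0.007 without wildtype replicate 1. In some other settings it was above 0. The members were chosen with earlier results of these data known, so the shared direction has no test.

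The levels of the 10 members kept much the same order in every library. Adamts10 was the most abundant, at 8.78 to 10.7 FPKM, and made up 37.9% to 56.1% of the summed ADAMTS level. Adamts2, Adamts5 and Adamts1 followed in that order in each of the 6 libraries. The ranges of Adamts10 and Adamts2 did not meet, nor did those of Adamts2 (3.68 to 7.59 FPKM) and Adamts5 (1.89 to 3.61 FPKM), whereas Adamts5 overlapped Adamts1 (1.08 to 2.18 FPKM) and Adamts1 overlapped Adamts9 (0.375 to 1.43 FPKM). Below these, Adamts7, Adamts4, Adamts3, Adamts15 and Adamts12 lay between 0.0820 and 0.727 FPKM and overlapped one another. Adamts9 was above Adamts7 in all libraries but KO replicate 1.

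**Figure D1:**
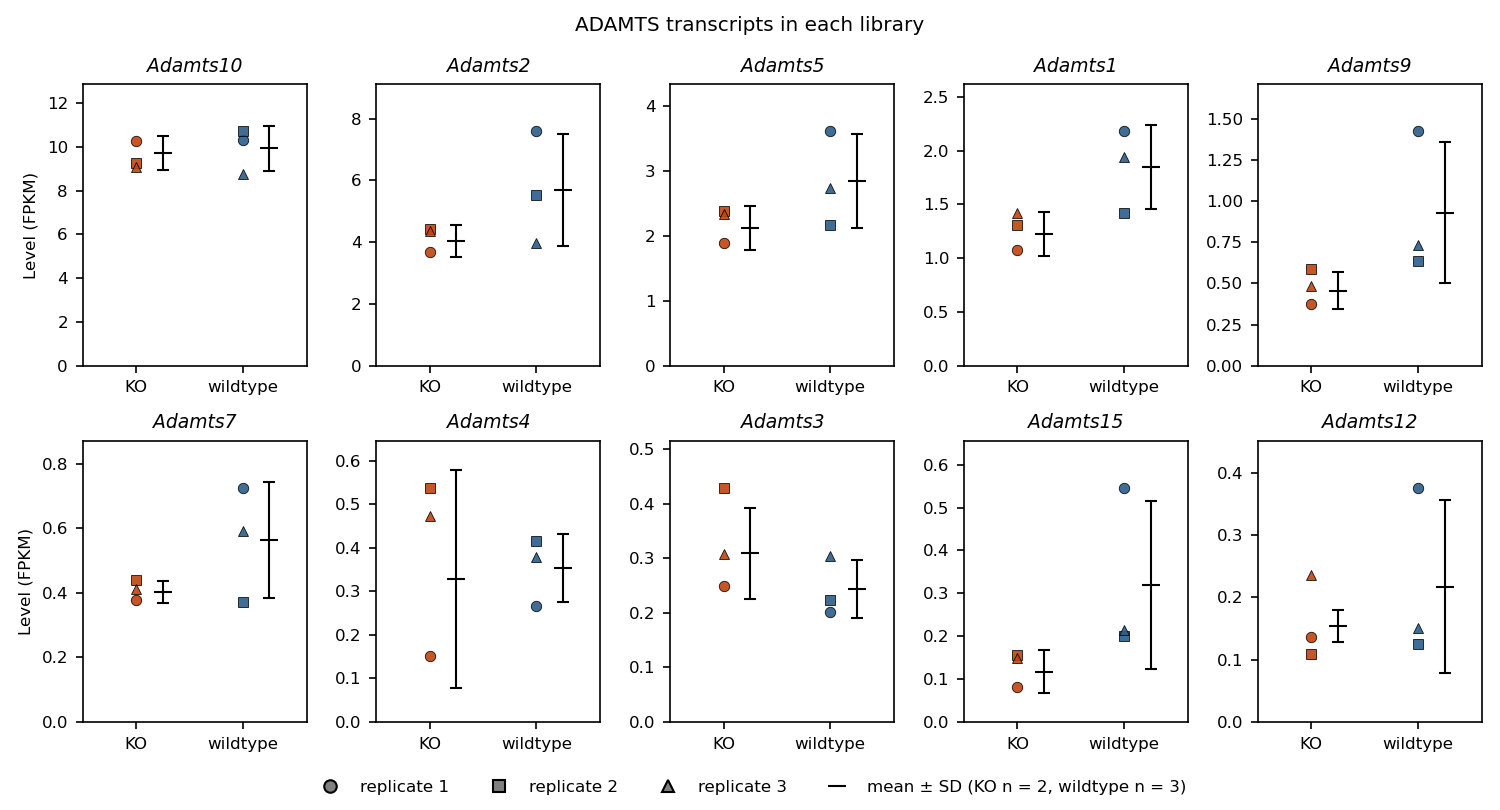
Level of each ADAMTS gene in FPKM (y axis, from 0, a separate scale for each gene) in both groups (x axis), with symbols for replicate numbers and the mean ± SD beside them, where KO replicates 2 and 3 were averaged before the mean (KO n = 2, wildtype n = 3). Wildtype replicate 1 (circle) is the highest point for 7 genes, and only for Adamts9 and Adamts15 do the KO points all lie below the wildtype points. Among all tested genes, which leave out Adamts15, 25.1% were highest in wildtype replicate 1. In 13.7% of them every KO library was below every wildtype library.

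Adamts5, the main aggrecanase of mouse cartilage, lies at chr16:85856173-85901828 on the minus strand. It measured 1.89, 2.38 and 2.34 FPKM in KO replicates 1, 2 and 3, and 3.61, 2.17 and 2.73 FPKM in wildtype replicates 1, 2 and 3. The groups overlapped, since wildtype replicate 2 lay below KO replicates 2 and 3. KO averaged 2.12 ± 0.335 FPKM (SD, n = 2), against 2.84 ± 0.725 FPKM (SD, n = 3) for wildtype. The log2 difference of -0.40 ± 0.210 (SE) was not called by edgeR (adjusted p = 0.477), with a 95% interval from -0.89 to 0.10. The estimate moved to -0.21 without wildtype replicate 1 and to -0.30 without KO replicate 1, and without wildtype replicate 2 it was -0.54 (unadjusted p = 0.0347 by edgeR).

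Adamts1, which cleaves aggrecan and versican and is induced in acute inflammation, is the neighbour of Adamts5 on the minus strand at chr16:85793827-85803113, with 53059 bp and no other gene of the table between them. Its levels were 1.08, 1.31 and 1.42 FPKM in the KO libraries and 2.18, 1.41 and 1.94 FPKM in the wildtype libraries. Only KO replicate 3 and wildtype replicate 2 overlapped, and by a narrow margin. Adamts1 averaged 1.22 ± 0.203 FPKM (SD, n = 2) in KO, against 1.84 ± 0.391 FPKM (SD, n = 3) for wildtype, a log2 difference of -0.57 ± 0.234 (SE). The unadjusted p was 0.0440 and the adjusted p by edgeR was 0.348, and without wildtype replicate 1 the difference was -0.46 with an unadjusted p of 0.124. Over the alternatives its adjusted p ran from 0.148 to 0.687. The ratio of Adamts5 to Adamts1 stayed between 1.41 and 1.81 in all 6 libraries.

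Adamts9, a versican- and aggrecan-cleaving enzyme and among the most conserved members of the family, showed the most negative log2 difference of the 5 tested genes. It lies at chr6:92772699-92943492 on the minus strand and overlaps 3 genes annotated on the opposite strand, A730049H05Rik, Gm15737 and 9530026P05Rik. KO libraries held 0.375, 0.585 and 0.487 FPKM and wildtype libraries 1.43, 0.636 and 0.733 FPKM. Every KO library was below every wildtype library, a pattern that 13.7% of all tested genes shared. Wildtype replicate 1 was 1.94 times the next highest library, and the gap between KO replicate 2 and wildtype replicate 2 was small. The log2 difference was -1.01 ± 0.357 (SE), with a 95% interval from -1.85 to -0.17, an unadjusted p of 0.0252 and an adjusted p of 0.282 by edgeR. Leaving out wildtype replicate 1 brought it to -0.60 (unadjusted p = 0.0511 by edgeR), and leaving out KO replicate 1 to -0.82 (unadjusted p = 0.119 by edgeR). Over the alternatives its adjusted p ran from 0.0819 to 0.545.

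The RefSeq promoter table (GRCm38.p6, 250 bases before to 50 after the start) held 5 of the 10 members, among them Adamts1 and Adamts9, which are shown because they had an unadjusted p under 0.05. Adamts15, with such a p in the fit with the low members added, was not among the 5. Both promoters are printed 5′ to 3′ on the strand of the gene, at chr16:85803064-85803363 and chr6:92943485-92943784. Capitals mark matches to the TATA box (TATAAA). They also mark matches to the GC box (GGGCGG), and both strands were searched.
Adamts1: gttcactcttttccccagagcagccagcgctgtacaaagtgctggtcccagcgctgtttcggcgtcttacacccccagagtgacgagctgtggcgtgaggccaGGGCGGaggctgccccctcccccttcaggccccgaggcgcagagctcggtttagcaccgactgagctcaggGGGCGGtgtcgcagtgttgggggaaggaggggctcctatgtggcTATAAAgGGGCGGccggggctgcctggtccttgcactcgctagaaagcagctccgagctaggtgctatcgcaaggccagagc
Adamts9: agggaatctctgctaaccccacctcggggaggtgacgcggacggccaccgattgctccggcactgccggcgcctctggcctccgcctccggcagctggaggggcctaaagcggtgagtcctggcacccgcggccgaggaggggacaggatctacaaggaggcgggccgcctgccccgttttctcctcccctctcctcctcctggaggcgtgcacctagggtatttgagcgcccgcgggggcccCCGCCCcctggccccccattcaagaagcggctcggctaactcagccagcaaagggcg

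Adamts1 held 1 TATAAA and 3 GGGCGG matches, which did not overlap, and Adamts9 held 1 GGGCGG match, on its opposite strand. TATAAA was found in 13.6% and GGGCGG in 35.7% of 32851 promoters of this length. Neither promoter held the letters TGANTCA (AP-1 site, in 7.81% of promoters) or TGTGGT (RUNX core, in 16.8%). The Adamts1 window had a GC content of 64.7%.

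Adamts4, the other classical aggrecanase, was scarce and differed widely among the KO libraries. It lies at chr1:171250421-171260637. Its counts were 43, 183 and 162 in KO and 85, 121 and 117 in wildtype, which corresponded to 0.152, 0.539 and 0.474 FPKM against 0.267, 0.417 and 0.380 FPKM. KO replicate 1 was the lowest library and KO replicates 2 and 3 were the highest, so the wildtype values fell between them. With the low members added to the tested genes, edgeR gave a log2 difference of -0.12 ± 0.509 (SE) and an adjusted p of 0.965. The sign turned to 0.47 without KO replicate 1, and the 95% interval, from -1.32 to 1.08, was wide. Adamts5 exceeded Adamts4 by 4.42 to 13.5 times in FPKM.

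Adamts15, an aggrecan- and versican-cleaving enzyme closely related to Adamts1 and Adamts4, lies at chr9:30899155-30922452 on the minus strand. It measured 0.0820, 0.157 and 0.15 FPKM in KO and 0.547, 0.20 and 0.213 FPKM in wildtype, from counts of 50, 115 and 110 against 375, 126 and 141. The groups did not overlap, with KO lower, as in 13.7% of all tested genes, which leave out Adamts15. Wildtype replicate 1, however, was 2.56 times the next highest library. Its log2 difference was -1.42 ± 0.530 (SE), with an unadjusted p of 0.0309 and an adjusted p of 0.305 by edgeR. It was -0.83 without wildtype replicate 1 (unadjusted p = 0.0874 by edgeR) and -1.09 without KO replicate 1, and over the alternatives its adjusted p ran from 0.110 to 0.699.

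The 5 hyalectan-cleaving members summed to 3.57, 4.97 and 4.87 FPKM in the KO libraries and to 8.03, 4.84 and 6.0 FPKM in the wildtype libraries. Wildtype replicate 2 lay within the KO range, and wildtype replicate 1 was far above the rest.

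Adamts2, the main procollagen N-propeptidase, lies at chr11:50602084-50807573 and overlaps Gm12198 and Gm12200 on the opposite strand. Levels were 3.68, 4.44 and 4.37 FPKM in KO and 7.59, 5.51 and 3.98 FPKM in wildtype. Wildtype replicate 3 lay below KO replicates 2 and 3, so the groups overlapped. Means were 4.04 ± 0.513 FPKM (SD, n = 2) and 5.69 ± 1.81 FPKM (SD, n = 3), and the log2 difference of -0.47 ± 0.250 (SE) had an adjusted p of 0.477 by edgeR. It was -0.24 without wildtype replicate 1 and -0.66 without wildtype replicate 3 (unadjusted p = 0.0103 by edgeR).

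Adamts3, which trims procollagens and also processes the lymphatic growth factor VEGFC, lies at chr5:89677087-89882935 on the minus strand. It went the other way, with 0.250, 0.430 and 0.307 FPKM in KO and 0.202, 0.224 and 0.304 FPKM in wildtype. KO replicate 2 was the highest and wildtype replicate 1 the lowest, and the groups overlapped. KO minus wildtype was 0.34 ± 0.345 (SE) on the log2 scale, with an adjusted p of 0.761 by edgeR. When replicates were left out, it ranged from 0.10 without KO replicates 2 and 3 to 0.55 without KO replicate 1. It was 0.20 without KO replicate 2 and 0.21 without wildtype replicate 1. Adamts2 exceeded Adamts3 by 10.3 to 37.5 times in FPKM.

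Adamts7 and Adamts12 encode a related pair that binds and can cleave COMP. Adamts7, at chr9:90163069-90208071 and overlapping Tbc1d2b on the opposite strand, measured 0.379, 0.441 and 0.413 FPKM in KO and 0.727, 0.372 and 0.592 FPKM in wildtype. Its KO libraries were close together, and wildtype replicate 2 lay below them. The log2 difference was -0.46 ± 0.325 (SE), with an adjusted p of 0.627 by edgeR, and it moved to -0.26 without wildtype replicate 1. Adamts12, at chr15:11064790-11349231, was the rarest member in KO replicate 2, with 0.136, 0.109 and 0.237 FPKM in KO and 0.376, 0.125 and 0.151 FPKM in wildtype. Here wildtype replicate 1 was again highest, and the other 5 libraries were mixed. The log2 difference was -0.47 ± 0.496 (SE), with an adjusted p of 0.777 by edgeR, and it moved to -0.205 without KO replicate 2 and turned to 0.15 without wildtype replicate 1.

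Adamts10, which associates with fibrillin microfibrils and whose human counterpart is mutated in Weill-Marchesani syndrome, lies at chr17:33524204-33553770. It measured 10.3, 9.27 and 9.08 FPKM in KO and 10.3, 10.7 and 8.78 FPKM in wildtype, the most even member of the 10. The highest library was only 1.22 times the lowest. The log2 difference was -0.01 ± 0.152 (SE), with an adjusted p of 0.990 by edgeR, and its 95% interval ran from -0.37 to 0.35.

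**Figure D2:**
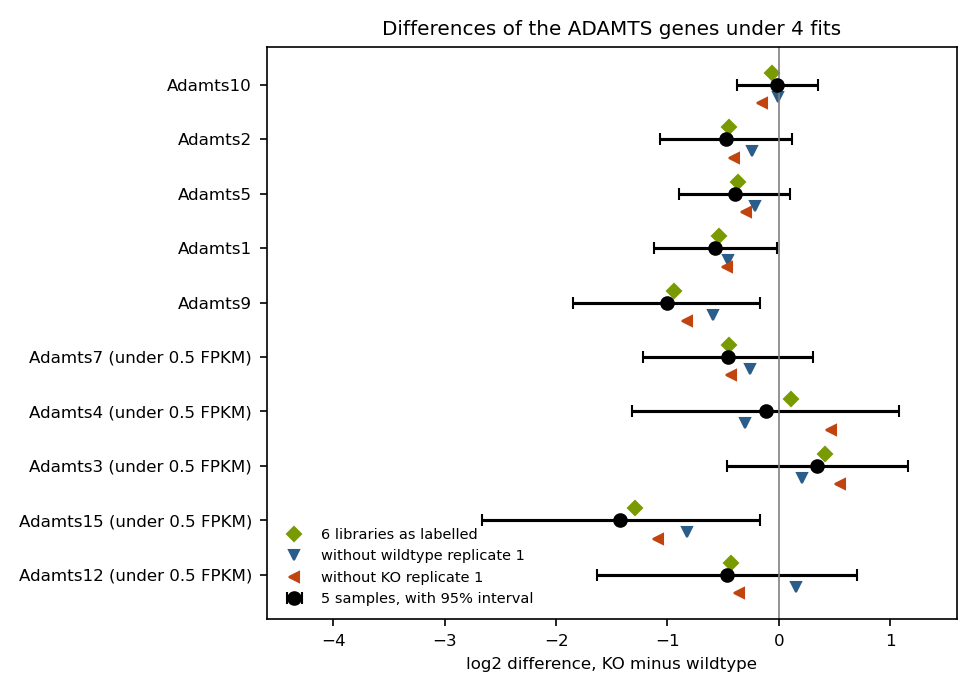
Log2 difference, KO minus wildtype, of each ADAMTS gene (x axis) under 4 fits, with the 95% interval of the fit of 5 samples as a bar. The intervals of Adamts1, Adamts9 and Adamts15 end below 0, and the estimates of these genes move toward 0 when wildtype replicate 1 is left out.

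Wildtype replicate 1 was the highest library for 7 of the 10 members and KO replicate 1 the lowest for 6. Among all tested genes, 25.1% were highest in wildtype replicate 1 and 26.2% lowest in KO replicate 1. The summed level of the 10 members was 18.3, 19.7 and 19.3 FPKM in KO and 27.3, 21.8 and 19.8 FPKM in wildtype. Every wildtype library was thus above every KO library, although wildtype replicate 3 was close to KO replicate 2.

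Several cell type markers were also highest in wildtype replicate 1. This held for 10 of 12 fibroblast, synovium and tendon genes, whose sum ranged from 385 to 427 FPKM in KO and from 301 to 728 FPKM in wildtype. It held for 6 of 7 osteoclast genes, with sums of 570 to 767 FPKM in KO and 702 to 1500 FPKM in wildtype. It also held for 9 of 10 endothelial genes (44.7 to 51.8 FPKM in KO, 48.6 to 74.9 FPKM in wildtype) and for 6 of 8 marrow stroma and adipocyte genes (121 to 162 FPKM in KO, 205 to 357 FPKM in wildtype). None of these marker genes was at 0 in any library. The osteoclast list had a median log2 difference of -0.92, with 6 genes lower in KO and Mmp9 higher. Mmp9 measured 201 to 343 FPKM in KO and 169 to 253 FPKM in wildtype, and its KO values made the osteoclast sums overlap. Of the chondrocyte genes, 5 of 15 were highest in wildtype replicate 1, and their sum was highest in KO replicate 1, where Prg4 gave 1034 of 1475 FPKM. Among the other lists, 6 of 9 osteoblast and osteocyte, 6 of 10 B cell, 5 of 8 T and NK cell and 5 of 9 smooth muscle and pericyte genes were highest in wildtype replicate 1. For macrophage and monocyte genes it was 2 of 9, and for skeletal muscle, erythroid, neutrophil and megakaryocyte genes 0. The part of these cell types in the ADAMTS values was not tested.

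Some marker lists separated the groups. All 10 B cell genes were lower in KO at an unadjusted p under 0.05, with sums of 90.5 to 141 FPKM in KO and 286 to 320 FPKM in wildtype, as were all 8 marrow stroma and adipocyte genes and 4 of 9 erythroid genes. All 10 neutrophil genes had a log2 difference above 0, and 7 of them had an unadjusted p under 0.05. For comparison, 1173 of all 15373 tested genes were higher and 933 (6.07%) lower in KO at that limit. Skeletal muscle genes varied most, from 3.43 to 144 FPKM in KO and 31.3 to 245 FPKM in wildtype, with Myh1, Myh2 and Mb at 0 in at least 1 library. Sums also did not overlap for smooth muscle and pericyte genes (24.8 to 26.8 FPKM in KO, 27.3 to 91.7 FPKM in wildtype, with Cnn1 at 0 in KO replicate 1), T and NK cell genes (94.2 to 115 and 72.8 to 86.6 FPKM) and megakaryocyte and platelet genes (849 to 915 and 978 to 1235 FPKM). The higher T and NK sum in KO came from Nkg7, a cytotoxic granule gene at 77.6 to 100 FPKM in KO and 52.8 to 67.1 FPKM in wildtype, while the log2 differences of the other 7 genes of that list were below 0. The sums overlapped for osteoblast and osteocyte genes (665 to 948 and 623 to 1776 FPKM) and for macrophage and monocyte genes (585 to 591 and 503 to 591 FPKM).

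**Figure D3:**
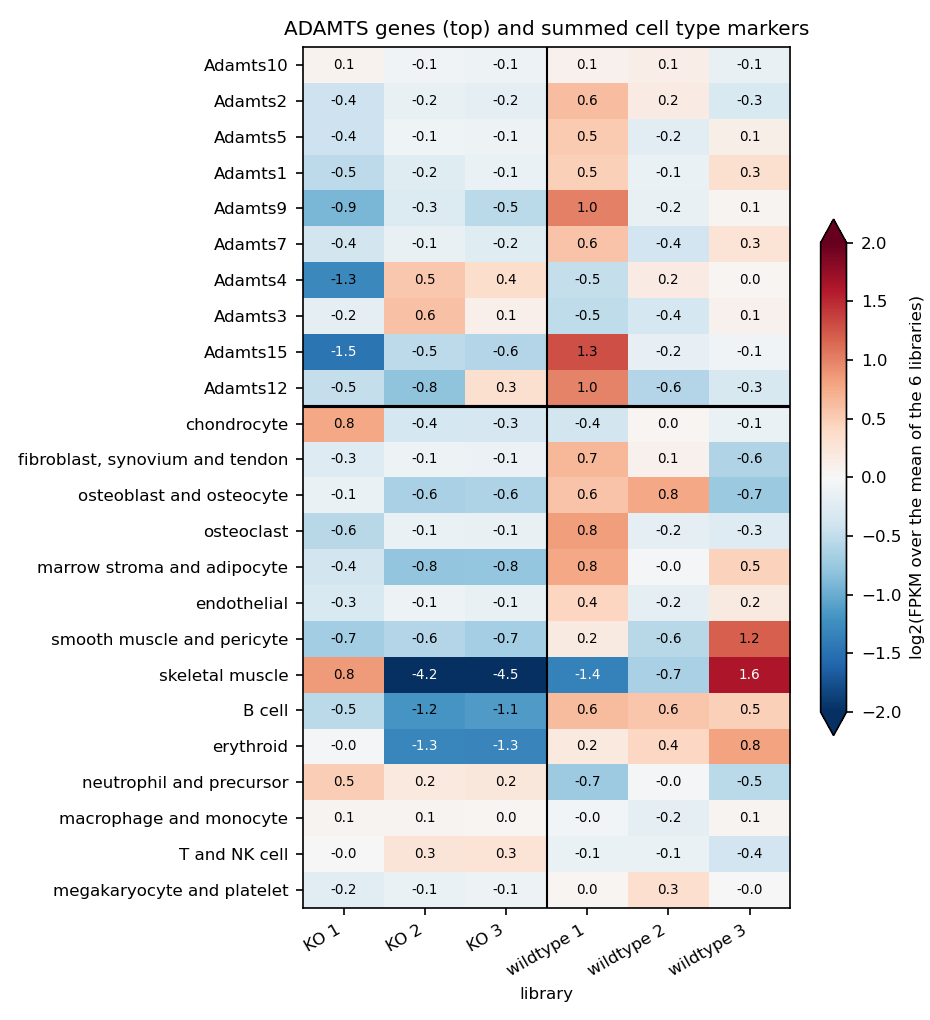
Heatmap of each ADAMTS gene (upper rows) and of the summed FPKM of 14 cell type marker lists (lower rows) in the 6 libraries (columns), coloured and labelled by log2 of the value over its mean across the 6 libraries. Most ADAMTS genes are red in wildtype replicate 1 and blue in KO replicate 1, and the fibroblast, osteoclast, marrow stroma and endothelial lists are also red in wildtype replicate 1.

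The other 9 ADAMTS genes of the family were mostly near 0 FPKM, and only Adamts6 and Adamts14 reached the limit for testing. Adamts14, the remaining procollagen N-propeptidase, had 0.633, 0.826 and 0.985 FPKM in KO and 2.27, 1.15 and 1.07 FPKM in wildtype. It was lower in every KO library than in every wildtype library, as were 13.7% of all tested genes. Its log2 difference was -0.94 ± 0.372 (SE), with an unadjusted p of 0.0391 and an adjusted p of 0.332 by edgeR, and it moved to -0.54 without wildtype replicate 1. Adamts6 had a log2 difference of -0.25, or -0.16 without that library. Of 6 ADAMTS-like genes, which lack the proteinase domain, 3 were tested and 0 had an unadjusted p under 0.05. The values were 0.31 for Adamtsl4, -0.62 for Adamtsl5 and 0.49 for Adamtsl2, the last of which moved to 0.32 without wildtype replicate 1.

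Among 9 hyalectan genes and partners, 3 were tested, and Vcan, the versican gene, was the one with an unadjusted p under 0.05. It was higher in KO, at 3.46, 8.58 and 8.33 FPKM, than in wildtype, at 2.45, 2.12 and 1.68 FPKM. The groups did not overlap, and the share of all tested genes with such a pattern is not given here. The log2 difference was 1.51 ± 0.325 (SE), with an adjusted p of 0.166 by edgeR and of 0.0393 when the 6 libraries were fitted as labelled. KO replicates 2 and 3, the nearly identical pair, carried the high values. Acan gave 22.8, 13.2 and 13.7 FPKM in KO and 16.7, 19.1 and 18.3 FPKM in wildtype, a log2 difference of 0.04. Hapln1, the link protein that fastens aggrecan to hyaluronan, had a log2 difference of 0.08, and without wildtype replicate 1 Acan and Hapln1 stood at -0.03 and -0.05. The ratio of Acan to Adamts5 was 12.1, 5.56 and 5.85 in KO and 4.63, 8.80 and 6.68 in wildtype, with overlap.

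All 6 procollagen substrates of the N-propeptidases were tested and 0 had an unadjusted p under 0.05. Their log2 differences were all below 0, with a median of -0.49, and all 6 were highest in wildtype replicate 1, as Adamts2 was. Without that library the median was -0.18. Col1a1, the major collagen of bone and fibrous tissue, had 104.6, 317 and 312 FPKM in KO and 495, 246 and 118 FPKM in wildtype, so each group spanned a wide range. Its log2 difference of -0.45 turned to 0.16 without wildtype replicate 1. Col3a1 stood at -1.02, Col5a1 at -0.44 and Col2a1 at -0.35, with adjusted p values by edgeR of 0.406, 0.487 and 0.596, and Col5a1 moved to -0.17 without wildtype replicate 1. Of 5 procollagen C-proteinase and enhancer genes, which act at the other end of the same substrates, 3 were tested and 0 had an unadjusted p under 0.05. These were Bmp1 at -0.59, Pcolce at -0.49 and Pcolce2 at 0.35 in log2 difference, and without wildtype replicate 1 they stood at -0.33, -0.18 and 0.23.

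Of 9 other glycoprotein substrates and microfibril partners, 8 were tested, 0 had an unadjusted p under 0.05 and the median log2 difference was -0.02. Bgn, Ltbp1 and Fbn1 stood at -0.47, -0.25 and -0.26, and without wildtype replicate 1 at -0.14, -0.08 and 0.02. Comp, the ligand of Adamts7 and Adamts12, measured 109.2, 41.0 and 41.0 FPKM in KO and 70.7, 60.2 and 71.2 FPKM in wildtype. KO replicate 1 was the highest library and KO replicates 2 and 3 were the lowest.

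Among 9 inhibitors, receptors and anchors, 7 were tested. Timp3, the principal tissue inhibitor of the aggrecanases, had 32.8, 20.9 and 21.4 FPKM in KO and 28.0, 35.5 and 31.4 FPKM in wildtype, with overlap and a log2 difference of -0.20 (adjusted p = 0.810 by edgeR). Timp3 exceeded Adamts5 by 7.76 to 17.4 times, and the groups overlapped in this ratio. Lrp1, the endocytic receptor that clears Adamts4 and Adamts5 proteins, had 11.9, 13.1 and 13.0 FPKM in KO and 12.2, 9.53 and 11.7 FPKM in wildtype (log2 difference 0.19, adjusted p = 0.642 by edgeR). The ratio of Lrp1 to Adamts5 was 6.32, 5.53 and 5.57 in KO and 3.38, 4.39 and 4.27 in wildtype, so it was higher in every KO library. This ratio was picked out after its values were seen and has no test.

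Sdc1, a cell surface heparan sulfate proteoglycan also carried by plasma cells, was the inhibitor-list gene with an unadjusted p under 0.05. It had 4.91, 5.16 and 4.73 FPKM in KO and 9.49, 7.17 and 6.91 FPKM in wildtype. It was lower in every KO library than in every wildtype library, as were 13.7% of all tested genes. Its log2 difference was -0.65 ± 0.174 (SE), with an adjusted p by edgeR of 0.194, and of 0.0484 with 6 libraries as labelled. The B cell genes were lower in KO too, and their part in the Sdc1 values was not tested. Timp1 stood at -0.57 (-0.32 without wildtype replicate 1) and Sdc4, a syndecan linked to Adamts5 activity, at -0.23.

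The 4 activating convertases, which remove the propeptide of ADAMTS proteins, were all tested, and 2 were higher and 1 lower in KO at an unadjusted p under 0.05. Over all 15373 tested genes, 1173 were higher and 933 lower at that limit. Furin had 10.1, 12.8 and 11.9 FPKM in KO and 8.33, 8.48 and 8.68 FPKM in wildtype. The groups did not overlap, and the share of all tested genes with such a pattern is not given here. The log2 difference was 0.42 ± 0.120 (SE), with an adjusted p by edgeR of 0.214, and of 0.0497 with 6 libraries as labelled. Pcsk7 was 0.37 higher and Pcsk5 0.75 lower on the log2 scale, with adjusted p values by edgeR of 0.290 and 0.362. Pcsk6, an activator of aggrecanases in cartilage, was at -0.10.

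Of 19 inducers and transcription factors, 17 were tested, with a median log2 difference of -0.00063. At an unadjusted p under 0.05, 3 were higher and 1 lower in KO, against 1173 higher and 933 lower of all 15373 tested genes. Tnfrsf1a, the main receptor for tumour necrosis factor, had 50.9, 67.9 and 66.6 FPKM in KO and 41.1, 40.6 and 44.6 FPKM in wildtype. Il1b, the interleukin that induces aggrecanases in chondrocytes, had 22.2, 24.7 and 26.6 FPKM in KO and 14.4, 18.4 and 15.7 FPKM in wildtype. Neither gene overlapped between groups, and the share of all tested genes with such a pattern is not given here. The log2 differences of Tnfrsf1a and Il1b were 0.50 and 0.58, with adjusted p values by edgeR of 0.197 and 0.203. With 6 libraries as labelled the adjusted p values were 0.0441 and 0.0536. Cebpb, a transcription factor of inflammation, was at 1.74 (adjusted p = 0.238 by edgeR), with 26.8 FPKM in KO replicate 1 against 3.60 to 9.39 FPKM in the others. Runx2, a transcription factor of bone and hypertrophic cartilage, was at -0.00063. The summed neutrophil genes were also higher in every KO library than in every wildtype library (49180 to 60664 FPKM against 25869 to 42388 FPKM), and the part of these cells in the Il1b and Tnfrsf1a values was not tested.

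**Figure D4:**
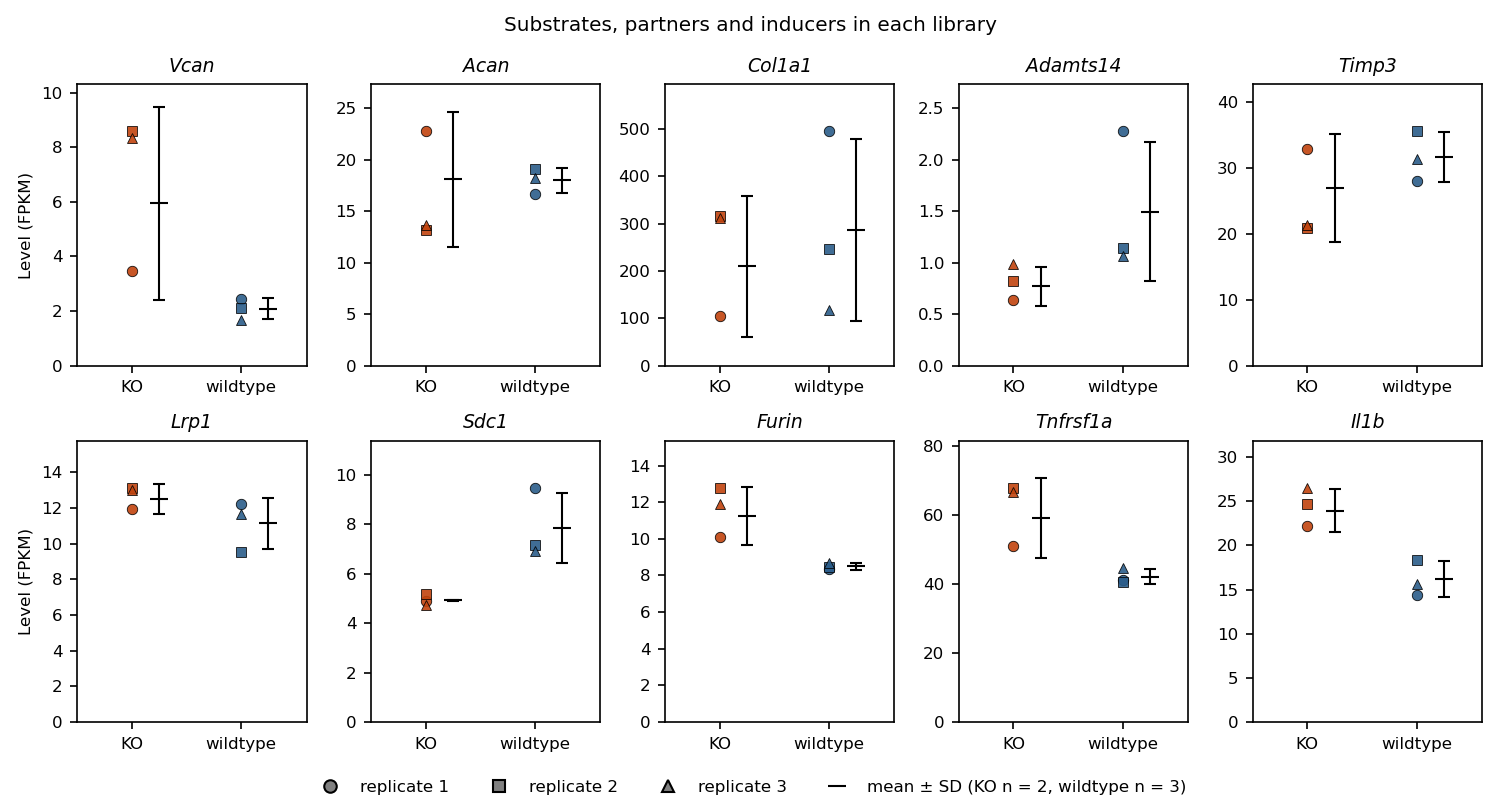
Level in FPKM (y axis, from 0, a separate scale for each gene) of substrates, regulators and inducers of the ADAMTS proteinases in the KO and wildtype libraries (x axis), with the mean ± SD (KO n = 2, wildtype n = 3). KO and wildtype points are apart for Vcan, Adamts14, Sdc1, Furin, Tnfrsf1a and Il1b and overlap for Acan, Col1a1, Timp3 and Lrp1. The genes that are apart were among those with the lowest unadjusted p of their lists. Among all tested genes, 13.7% had every KO library below every wildtype library, and the share with KO above wildtype is not given here.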

How the data were processed

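RNA sequencing was performed on articular cartilage from wildtype and KO mice. The knocked-out gene is not reported here. Per the labels, polyadenylated RNA was used for strand-specific libraries read as pairs of 150 bp. The authors deposited an FPKM value and a count per gene and library. The deposited counts were treated as estimated counts, since 6596 values were 4 against 4170 at 3 and 2332 at 5. The submitters' processing notes name cutadapt 1.9, HISAT2 2.0.4, UMI-tools, StringTie 1.3.4d, DESeq2 and edgeR without their roles, and whether counting used strand is not given in the sources used here. Reads of members that overlap a gene on the opposite strand may therefore be shared.

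Groups and replicate numbers came from the sample titles. KO replicates 2 and 3 were averaged and the counts rounded, which left 5 samples. Genes whose mean reached 0.5 FPKM were tested with edgeR 4.0.16 (quasi-likelihood, TMM scaling, R 4.3.3), without covariates, and p-values were Benjamini-Hochberg adjusted over all 15373 genes. For the 5 members below that limit, a fit with them added (15378 genes) was used, chosen after seeing the data. Calls were made at an adjusted p under 0.05. DESeq2 1.42.0, limma 3.58.1 on log2(FPKM + pseudocount of 1 or 0.1), other scaling and filters, a replicate block and leaving out libraries were alternatives. The procedure was tested on simulated data for the comparison of 5 samples over 15373 genes. Of genes altered by a fold of 1.5, 0% to 2.99% were called, so a difference of that size would mostly be missed. For a fold of 2 the share was 28.4% to 34.3%, and for a fold of 4 it was 74.2% to 80.3%.

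Samples were not paired by replicate number in the reported fit. Same-numbered deviations from the group means correlated at -0.21, -0.18 and 0.0014. These cannot settle whether samples were paired, since deviations within a group sum to 0 and KO replicates 2 and 3 were nearly alike. The members, the 9 pathway lists and the 14 cell type marker lists were chosen with earlier results of these data known. All 10 members were named. From each pathway list up to 3 genes with the lowest unadjusted p were named, and Acan, Vcan, Col1a1, Timp3, Lrp1, Il1b, Runx2, Sdc4, Furin and Pcsk6 whatever their values. Comp, Prg4, Matn1, Matn3, Mmp9, Nkg7 and the muscle genes at 0 were named after their values were seen. Catalytic sites and coordinates were read from GENCODE M21 on GRCm38, and promoters from a RefSeq table.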

Additional observations from a re-analysis of the deposited data

How the results depend on the processing

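In 16 settings beside the one reported, 0 ADAMTS genes had an adjusted p under 0.05. Of 151 member differences recomputed under these settings, 143 kept their direction and 8, in 3 members, did not. The number of genes called overall was 0 in the reported fit, 570 with 6 libraries as labelled, 879 with DESeq2 and 21 with no filter on low values, and it ranged from 0 to 352 when replicates were left out (352 without KO replicate 1, 9 without KO replicates 2 and 3, 1 without wildtype replicate 2 or 3). With 6 libraries and without wildtype replicate 1 it was 0, by edgeR, with 2717 genes at an unadjusted p under 0.05. ADAMTS genes with an unadjusted p under 0.05 numbered 2 in the reported fit, 0 with limma at either pseudocount, 0 at a minimum of 5 FPKM, where 1 member was tested, and 0 to 3 when replicates were left out (0 without KO replicate 1 and without wildtype replicate 1, 1 without KO replicate 2 and without KO replicates 2 and 3). It was 1 with 6 libraries and without wildtype replicate 1, a setting chosen after seeing the data. Where a setting left 1 KO sample, that sample was assumed to vary like the wildtype group. With the replicate block on 6 libraries, 0 genes were called (2809 at an unadjusted p under 0.05), and Adamts1 and Adamts9 stood at -0.52 and -0.87 with unadjusted p of 0.0466 and 0.0433 by edgeR. The log2 difference of Adamts4 turned to 0.112 with 6 libraries as labelled and ranged from -0.301 to 0.471 when a replicate was left out and was -1.14 without KO replicates 2 and 3, with 0.043 without wildtype replicate 2. For Adamts10 it was 0.022 with no filter and ranged from -0.15 to 0.124 when replicates were left out, including 0.075 without wildtype replicate 2. For Adamts12 it ranged from -0.79 to 0.152, the latter without wildtype replicate 1, and was 0.191 with 6 libraries and without wildtype replicate 1. The cause of these shifts was not tested. Depth did not leave any member without reads, but Adamts3, Adamts4, Adamts7, Adamts12 and Adamts15 rested on 43 to 375 counts per library, and their intervals were wide.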
